A study of Mus musculus with 12 samples.

Results

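Lx elements are a group of old LINE-1 (L1) retrotransposon subfamilies of rodents. Their RNA was described here in mouse testis, in libraries of an immunoprecipitation of the L1 protein ORF1p and of its controls. Members were the L1 rows whose annotated name begins with Lx, which gave 21 of the 1528 repeat subfamilies of the subfamily table. In the tables of single repeat loci, the same names gave 47138 of 781935 loci, out of 154660 loci of the L1 family. No measured value entered this rule, though earlier results of these data were known when it was chosen. The tables name a locus by its subfamily and a serial number and hold no coordinates, so no position, gene overlap or sequence is given here.

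L1 elements copy themselves through an RNA intermediate that encodes ORF1p, an RNA-binding protein, and ORF2p, an endonuclease and reverse transcriptase. Both proteins act mainly on the RNA that encoded them, a behaviour known as cis-preference. The L1Md subfamilies hold the young mouse copies that still encode both proteins. Lx elements amplified early in the lineage of murine rodents, and their copies are today mostly truncated and mutated remnants scattered through the genome, many of them inside the introns and untranslated regions of genes.

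All 12 libraries came from testes of Mael-/- mice of the C57BL/6 strain at 3 months of age, and no wild-type library was analysed here. Mael encodes Maelstrom, a protein of the piRNA pathway without which L1 is expressed in spermatocytes. TOTAL was the testis extract, and INPUT was the pool of fractions 5 to 8 of a sucrose gradient on which it was run after addition of 10 mM EDTA, an agent that splits ribosomes. IP was the RNA held by anti-ORF1p antibody on beads from INPUT, and BO (beads only) was the RNA held by the same beads without antibody. Each group had 3 biological replicates. The extracts were of whole testis, and BO carried no unrelated antibody, so IP and BO differ by the antibody itself as well as by what it recognises. In such bulk samples, fewer cells of a type and less RNA per cell cannot be told apart.

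Each library had between 1384904 and 7282171 reads on repeats, with a median of 6188000 in TOTAL, 3545267 in INPUT, 2801685 in BO and 1533417 in IP. Lx subfamilies held between 57619 and 181944 of these reads per library. In some libraries 1 other repeat held a large share, as 7SL RNA held between 38.1% and 51.6% of the reads in TOTAL and LSU rRNA held 52.1% in BO replicate 3. The mean normalized count of Mael was 0.65 in TOTAL and 0 in IP. The tissue label was checked against the TOTAL means of marker genes. Spermatocyte markers were present, with 9433 for Sycp1 and 5739 for Sycp3, whereas the spermatid markers Prm1 and Tnp1 had 22.0 and 30.1. Sertoli and Leydig cell markers were also present, with 1591 for Sox9 and 29894 for Cyp17a1.

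The subfamily table holds normalized counts, brought by the authors to an equal upper quartile in all libraries. On this scale the 21 Lx subfamilies ranged from a mean of 251 over the 12 libraries for Lx2A to 16160 for Lx8. Lx8, Lx9 and Lx7 held the most reads and also had the most loci listed in the locus tables, 7155, 6544 and 5374. Lx8 held 17.7% ± 0.74 (SD, n = 3) of all Lx reads in TOTAL and 17.1% ± 0.22 in IP. Lx9 held 14.2% ± 0.34 in TOTAL and 13.3% ± 0.57 in IP. Lx7 held 12.7% ± 0.29 in TOTAL and 13.3% ± 0.13 in IP. In IP, the shares of Lx9 and Lx7 did not differ beyond their spread. Counts are not divided by the length of the copies, so they do not compare levels per length between subfamilies.

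As a share of the reads on all L1 subfamilies, Lx was lower in IP than in any other group. It made up 17.0%, 19.5% and 21.9% of L1 reads in IP replicates 1, 2 and 3. In BO the shares were 28.9%, 28.4% and 29.0%. In INPUT they were 24.6%, 27.2% and 27.4%, and in TOTAL 23.7%, 26.8% and 26.9%. Every IP library therefore lay below every library of the other groups, and the BO libraries lay above all others. The order was the reverse for L1Md, with 51.2%, 44.6% and 38.0% in IP and between 16.2% and 17.2% in BO.

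**Figure D1:**
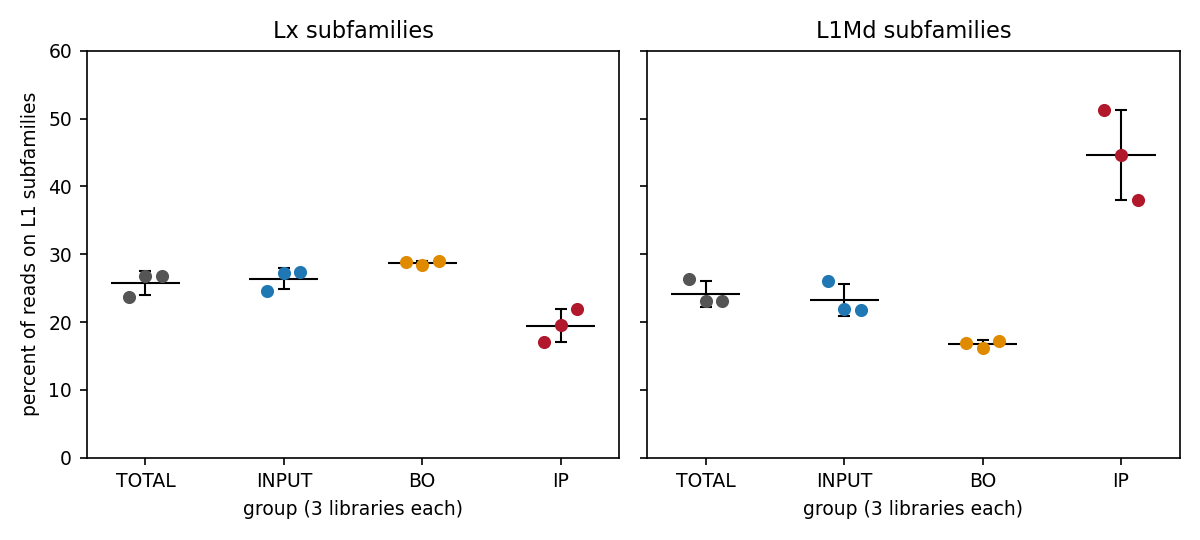
Share of the reads on L1 subfamilies held by Lx (left) and L1Md (right) subfamilies, in percent, by group. Points are libraries, lines are means and bars are SD (n = 3). Lx sits between 17.0% and 21.9% in IP and above 23% elsewhere, while L1Md sits between 38.0% and 51.2% in IP.

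The ratio of summed Lx to summed L1Md counts within a library does not depend on how libraries are scaled. A rise of L1Md lowers this ratio as a fall of Lx does. The log2 of the ratio was -1.19 ± 0.40 (SD, n = 3) in IP, 0.78 ± 0.03 in BO, 0.19 ± 0.23 in INPUT and 0.09 ± 0.21 in TOTAL. IP was thus lower than BO by a log2 difference of -1.97, lower than INPUT by -1.38 and lower than TOTAL by -1.28. The groups did not overlap in any of these comparisons, and each gave p = 0.1 in a two-sided exact permutation test, the smallest value that 3 against 3 libraries allow (0.125 after Benjamini-Hochberg adjustment over 5 comparisons). BO was higher than INPUT by 0.59 with the same p. INPUT and TOTAL overlapped, with a difference of 0.09 (unpaired exact permutation p = 0.5). Same-numbered libraries of these groups varied together, and INPUT was higher in each of the 3 pairs, by 0.07, 0.09 and 0.11.

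Against other old L1 subfamilies, the same kind of ratio differed by less between IP and BO. These were the 11 subfamilies named L1_Mus, L1_Mur, L1_Mm or L1VL, here called intermediate, and the ancient L1M and HAL1 subfamilies shared with other mammals. The log2 ratio of Lx to intermediate subfamilies was 0.55 ± 0.06 (SD, n = 3) in IP and 0.61 ± 0.03 in BO. The groups overlapped, with a difference of -0.06 (two-sided exact permutation p = 0.2). The log2 ratio of Lx to ancient subfamilies was -0.15 ± 0.02 in IP and -0.25 ± 0.05 in BO, and the difference of 0.10 came with no overlap (exact permutation p = 0.1, the smallest possible). Groups also did not overlap for the ratio to intermediate subfamilies between INPUT and TOTAL, higher in INPUT by 0.14, and for the ratio to ancient subfamilies between IP and INPUT, higher in IP by 0.11 (exact permutation p = 0.1 for each). The other comparisons of these 2 ratios overlapped. Ratios to these classes were added after the data had been seen, and over all 15 ratios no adjusted p was below 0.214.

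Each subfamily was then compared between groups on log2(normalized count + 1) with limma's moderated test, over the 1180 subfamilies whose mean reached 10. Calls needed an adjusted p under 0.05 and a difference past 2-fold. No Lx subfamily was called in any of the 5 comparisons, and none reached 2-fold even at an unadjusted p under 0.05. The test with edgeR on recovered reads called none either. The background of these limma calls over all subfamilies was 5.08% higher and 3.81% lower for IP vs BO, 3.22% and 2.88% for IP vs INPUT, 2.88% and 3.47% for IP vs TOTAL, 0% and 0.339% for INPUT vs TOTAL, and 2.63% and 2.8% for BO vs INPUT. Scaled to library totals, 3 Lx subfamilies were called higher for IP vs INPUT, 21 for IP vs TOTAL and 3 for INPUT vs TOTAL, beside 10.7%, 85.9% and 54% of all subfamilies under that scaling. The comparisons that follow therefore count the members with an adjusted p under 0.05 at any fold.

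IP was set against BO to compare the make-up of the RNA held with and without the antibody. The amount of RNA held by each was not compared. Of 21 Lx subfamilies, 9 were lower in IP than in BO and 0 were higher, against a background of 23.2% lower and 11.3% higher over all subfamilies. At an unadjusted limma p under 0.05, a threshold not counted over all subfamilies, 11 were lower and 1, Lx2A, was higher. The edgeR test on recovered reads passed 4 lower and 3 higher, beside 14.8% and 15.3% of all subfamilies. The median log2 fold change was -0.17 over Lx and -0.12 over all subfamilies tested. In contrast, all 6 L1Md subfamilies were higher, with a median of 1.27. The 9 were Lx8b, Lx8, Lx6, Lx9, Lx7, Lx10, Lx5b, Lx5c and Lx2, and 8 of them belonged to the subfamilies numbered 5 to 10. The IP libraries lay below all BO libraries for 12 members, against 30.5% of all subfamilies, and above them for 0, against 16.5%.

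Lx8b differed most. Its normalized counts were 9825, 9359 and 8464 in BO and 5354, 5776 and 6059 in IP. INPUT gave 5363, 5158 and 4988, and TOTAL gave 5401, 5287 and 5160. The BO libraries lay well above all others, which fell within a narrow band. The log2 fold change of IP over BO was -0.68 ± 0.07 (SE), with a limma adjusted p of 2.3e-05.

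Lx8, the member with the most reads, gave 20678, 20162 and 18979 in BO and 14443, 14939 and 15605 in IP. Its INPUT values were 15049, 15005 and 15022 and its TOTAL values 14435, 14645 and 14963. Again only BO stood apart. The log2 fold change of IP over BO was -0.41 ± 0.06 (SE, limma adjusted p = 0.00027).

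Lx9 gave 15860, 15288 and 14078 in BO and 10718, 11793 and 12339 in IP, a log2 fold change of -0.38 ± 0.08 (SE, limma adjusted p = 0.0026). Lx7 gave 15925, 14943 and 13345 in BO and 11361, 11759 and 11816 in IP, a log2 fold change of -0.34 ± 0.08 (limma adjusted p = 0.0077). Both had BO values above every IP value. Lx6, Lx10, Lx5b, Lx5c and Lx2 differed by -0.39, -0.29, -0.28, -0.27 and -0.22 on the log2 scale.

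At the other end, Lx2A, the member with the fewest reads, gave 329, 362 and 286 in IP and 317, 243 and 202 in BO. The groups overlapped, and the log2 fold change of 0.38 ± 0.15 (SE) did not pass (limma adjusted p = 0.074). It passed without BO replicate 1 (0.55, limma adjusted p = 0.00975), with scaling by the median ratio (0.50, limma adjusted p = 0.033) and with edgeR (0.47, adjusted p = 0.038). With the replicate numbers as a block it also passed (0.38, limma adjusted p = 0.0464). Over all alternatives the adjusted p ran from 0.00975 to 0.262. Lx3B and Lx2B2 had log2 fold changes of 0.18 and 0.11, and all other members were negative. The zero line of this comparison rests on the scaling. Scaled by the median ratio of libraries, where the median of all subfamilies was 0.00 instead of -0.12, 4 Lx subfamilies were lower and 3 were higher, beside 15.5% and 15.6% of all subfamilies. Scaled to library totals, where that median was 0.36, 0 were lower and 0 were higher, and the log2 fold changes of 17 members turned from negative to positive.

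**Figure D2:**
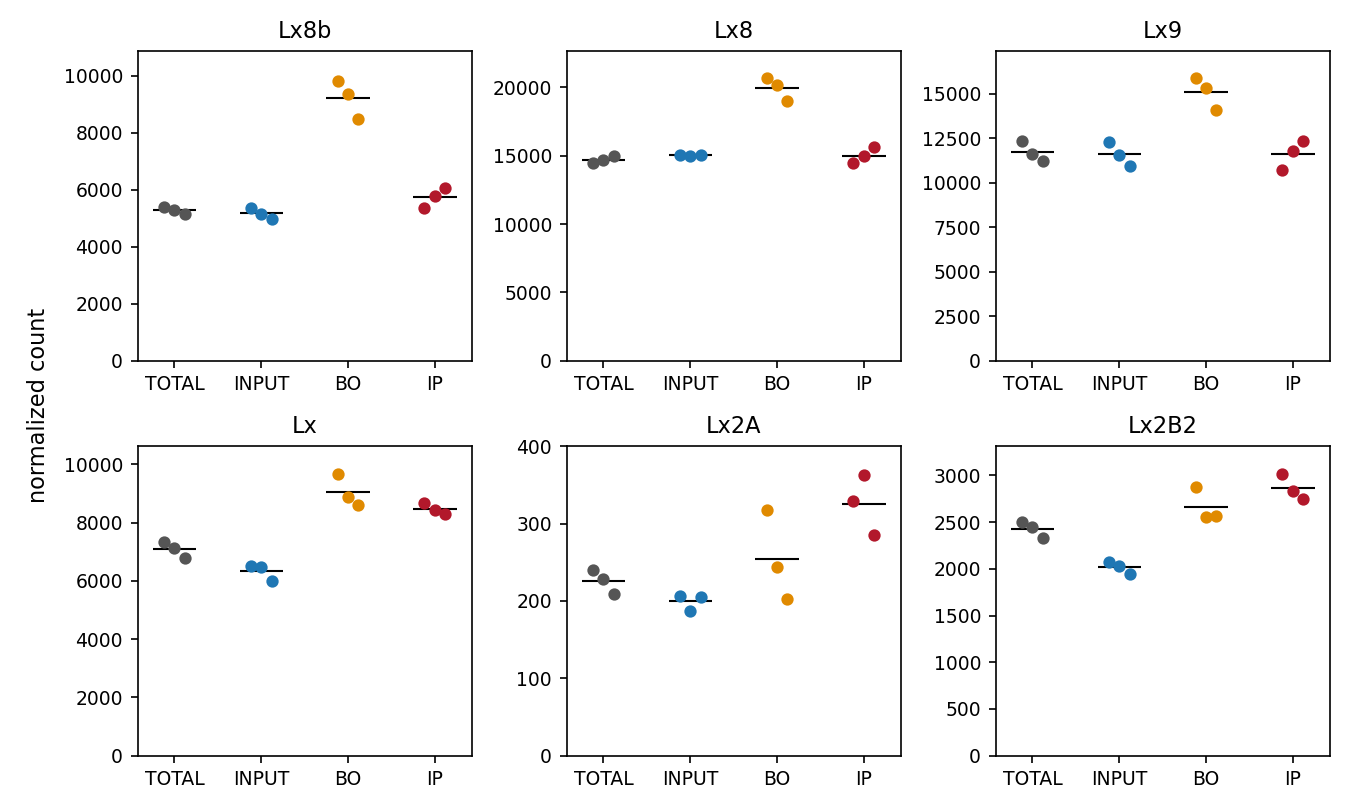
Normalized counts of 6 Lx subfamilies by group, with an axis from 0 in each panel. Points are libraries and lines are group means (n = 3). Lx8b, Lx8 and Lx9 are highest in the 3 BO libraries, while Lx2A has its highest mean in IP, 326, and overlaps with BO.

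IP was set against INPUT to compare the precipitate with the material offered to it. Here 10 of 21 Lx subfamilies were higher in IP and 0 were lower, against a background of 11% higher and 16.7% lower. At an unadjusted limma p under 0.05, a threshold not counted over all subfamilies, 12 were higher and 0 lower, and edgeR also gave 0 lower. The median log2 fold change was 0.19 over Lx, -0.06 over all subfamilies, 0.27 over intermediate and 0.00 over ancient L1 subfamilies. All 6 L1Md subfamilies were higher. The higher members were Lx2A, Lx2B2, Lx3B, Lx, Lx2B, Lx3A, Lx10, Lx3C, Lx5 and Lx4A, of which Lx2A, Lx2B2, Lx3B and Lx rose by 0.70, 0.50, 0.47 and 0.42 on the log2 scale. The IP libraries lay above all INPUT libraries for 13 members, against 17.4% of all subfamilies, and below them for 0, against 26.4%.

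Lx2A gave 207, 187 and 205 in INPUT, all below the IP values of 329, 362 and 286 (SE 0.15, limma adjusted p = 0.0048). Lx2B2 gave 2074, 2034 and 1948 in INPUT and 3020, 2828 and 2745 in IP (SE 0.07, limma adjusted p = 0.00027). The groups were well apart for Lx2B2. The member named Lx without a number gave 6516, 6471 and 6014 in INPUT and 8683, 8427 and 8299 in IP (SE 0.07, limma adjusted p = 0.00071). Lx6, the lowest member here, gave 5329, 4498 and 4565 in INPUT and 4654, 4875 and 4756 in IP, which overlapped, with a log2 fold change of -0.01 ± 0.09 (SE). Lx8 and Lx9 had 0.00. Leaving out any one of INPUT replicate 2 or 3 or IP replicate 2 or 3 gave 6 members that passed as higher. The share of all subfamilies was not counted in those fits. Scaled to library totals 4 passed, beside 12% of all subfamilies.

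For L1Md_A, L1Md_T and L1Md_Gf, which belong to the young L1Md subfamilies, IP was higher than INPUT by 1.81, 1.87 and 2.07 on the log2 scale. L1Md_F, L1Md_F3 and L1Md_F2 were higher by 0.54, 0.55 and 0.67. Lx2A at 0.70 was close to these, and the 20 other members lay below them. The members were not tested against L1Md subfamilies directly.

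IP was set against TOTAL to compare the precipitate with the whole extract. Lx2A, Lx and Lx2B2 were higher in IP and 0 members were lower, against a background of 10.2% higher and 12.5% lower. At an unadjusted limma p under 0.05, a threshold not counted over all subfamilies, 4 were higher and 0 lower, and edgeR also gave 0 lower. Lx2A gave 239, 228 and 209 in TOTAL, a log2 fold change of 0.53 ± 0.15 (SE, limma adjusted p = 0.029). Lx gave 7322, 7138 and 6796, a log2 fold change of 0.26 ± 0.07 (limma adjusted p = 0.016). Lx2B2 gave 2496, 2450 and 2333, a log2 fold change of 0.24 ± 0.07 (limma adjusted p = 0.029). In each of these 3 the IP libraries lay above the TOTAL libraries, as they did for 7 members in all, against 15.4% of all subfamilies. They lay below for 0, against 22%.

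Markers of cell types differed between the same groups. In the authors' means, the 7 spermatocyte markers were higher in IP than in TOTAL, as were the germ cell markers Ddx4 and Dazl, and their IP means were also higher than in INPUT and BO. Sycp1 had 71553 in IP beside 9433 in TOTAL, and the spermatocyte markers summed to 165604 beside 28300. The 5 Sertoli, 5 Leydig and 5 spermatid markers were lower in IP than in TOTAL and than in INPUT. Sertoli markers summed to 23540 in IP beside 73133 in TOTAL, Leydig markers to 15226 beside 77573 and spermatid markers to 3.04 beside 116. Against BO, the 5 Leydig markers were higher in IP, 2 of 5 Sertoli markers were higher and 3 lower, and spermatid markers summed to 2.32 in IP and 1.42 in BO. These are pooled means, shown without the authors' errors, which were not used. The part of the markers in the differences of Lx was not tested.

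The other members had log2 fold changes from -0.05 for Lx5c to 0.18 for Lx10. Lx5c gave 4030, 3789 and 3810 in TOTAL and 3585, 3782 and 3863 in IP, which overlapped. For Lx8 the difference was 0.03, with a 95% interval from -0.10 to 0.16, and for Lx9 it was -0.01, from -0.18 to 0.15. The count of 3 depended on single libraries, as leaving out TOTAL replicate 3 gave 0 and leaving out TOTAL replicate 2 or IP replicate 2 gave 1. In those fits the share of all subfamilies was not counted. Scaled to library totals, where the median of all subfamilies was 1.49 and 7SL RNA takes a large part of the TOTAL reads, all 21 were higher, as were 90.7% of all subfamilies. IP vs BO, IP vs INPUT and IP vs TOTAL share the IP libraries.

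INPUT was set against TOTAL to see whether the gradient fractions held Lx RNA at the level of the extract. No Lx subfamily passed in either direction, against a background of 0.847% in each direction, and edgeR passed none. At an unadjusted limma p under 0.05, a threshold not counted over all subfamilies, 6 were lower and 0 higher. With the replicate numbers as a block, 1 subfamily, Lx2B2, was lower in INPUT, beside 2.71% of all subfamilies under the block. The difference of Lx2B2 was -0.26 on the log2 scale (limma adjusted p = 0.0198, against 0.0834 without the block and 0.0198 to 0.273 over its alternatives). The log2 fold changes ran from -0.29 ± 0.09 (SE) for Lx3B to 0.03 ± 0.06 for Lx8, with a median of -0.10 over Lx and 0.03 over all subfamilies. Lx3B gave 931, 1066 and 1015 in TOTAL and 821, 881 and 754 in INPUT, with no overlap (limma adjusted p = 0.13). Altogether 12 Lx subfamilies were lower in INPUT without overlap, against 10.5% of all subfamilies, and 1 was higher, against 14.7%. Scaled to library totals, 21 were higher, as were 78.1% of all subfamilies.

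BO was set against INPUT to compare the make-up of the RNA on bare beads with that of the material offered. The Lx subfamilies were higher in BO, with 18 of 21 passing and 0 lower, against a background of 17.2% higher and 11.7% lower. At an unadjusted limma p under 0.05, a threshold not counted over all subfamilies, 0 were lower too, as with edgeR. The groups did not overlap for 19 members, against 23.7% of all subfamilies higher and 18.5% lower. The median log2 fold change was 0.37 over Lx and 0.03 over all subfamilies. Lx8b rose most, by 0.83 ± 0.07 (SE, limma adjusted p = 9.6e-06), followed by Lx10, Lx7 and Lx at 0.60, 0.53 and 0.52. Lx2A, Lx4B and Lx3_Mus did not pass, with 0.32, 0.16 and 0.15. Lx3_Mus gave 3025, 2849 and 2686 in BO and 2697, 2655 and 2374 in INPUT, which overlapped.

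Other old L1 subfamilies were also higher on bare beads than in INPUT. Of 11 intermediate subfamilies, 8 passed, with a median of 0.41. Of 88 ancient subfamilies tested, 44 passed higher and 1 lower, with a median of 0.33. Of the 6 L1Md subfamilies, 0 passed in either direction, with a median of 0.07. The within-library log2 ratio of Lx to intermediate subfamilies was 0.61 ± 0.03 (SD, n = 3) in BO and 0.61 ± 0.05 in INPUT, and that to ancient subfamilies was -0.25 ± 0.05 and -0.26 ± 0.06. Both overlapped between the groups. LSU rRNA held 52.1% of the reads of BO replicate 3, and without that library 19 members passed. The share of all subfamilies was not counted in that fit. Scaled to library totals, 0 passed, although the median was 0.42.

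**Figure D3:**
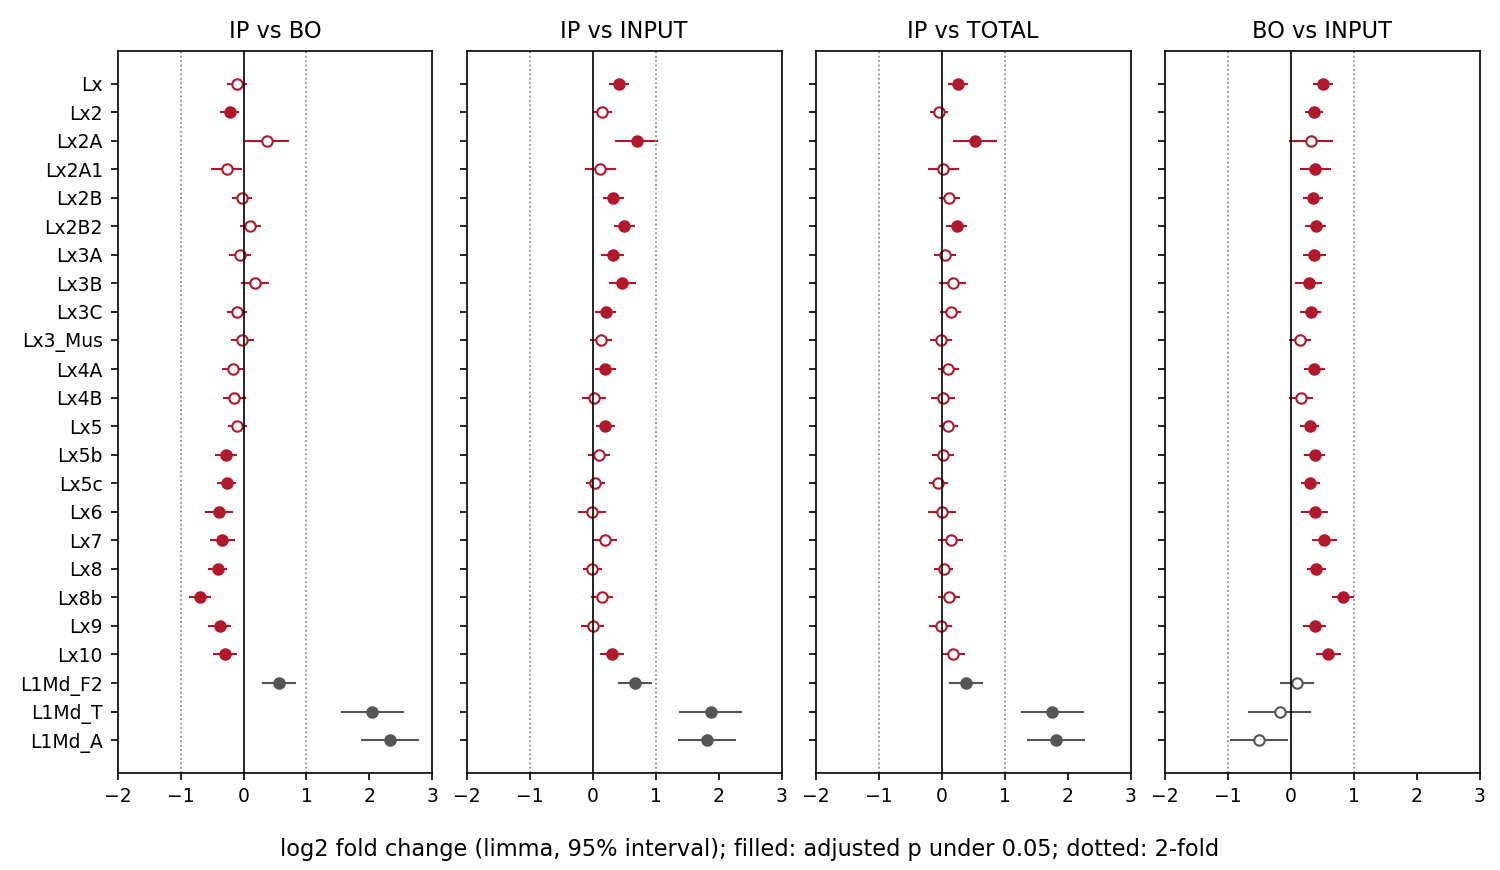
Log2 fold change of each Lx subfamily (red) and of L1Md_A, L1Md_T and L1Md_F2 (grey) in IP over BO, IP over INPUT, IP over TOTAL and BO over INPUT, from the limma fit of 12 libraries. Bars are 95% intervals, filled symbols have an adjusted p under 0.05 and dotted lines mark 2-fold. All Lx symbols lie inside the dotted lines, whereas L1Md_A and L1Md_T lie beyond them in the 3 panels of IP.

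The members differed among themselves, in part with the number in their names. Lx, Lx2, Lx3 and Lx4 together held 29.2% ± 0.49 (SD, n = 3) of Lx reads in TOTAL, 27.2% ± 0.51 in INPUT, 26.1% ± 0.50 in BO and 30.5% ± 0.84 in IP. Lx5 to Lx10 held the remainder, from 69.5% in IP to 73.9% in BO. In IP over BO, the median log2 fold change was -0.08 over the 12 subfamilies of the first group and -0.34 over the 9 of the second. In the first group 1 subfamily and in the second 8 were lower at an adjusted p under 0.05, beside 23.2% of all subfamilies, and scaling by the median ratio or edgeR left 4 lower in all. In IP over INPUT, the medians were 0.26 and 0.10, with 8 and 2 higher, beside 11% of all subfamilies.

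Across the 20 subfamilies with a number in their name, Spearman's rho between that number and the log2 fold change was -0.79 for IP over BO and -0.53 for IP over INPUT. It was -0.16 for IP over TOTAL, 0.70 for INPUT over TOTAL and 0.45 for BO over INPUT. These values describe subfamilies that share libraries and related sequences, and the comparisons share groups. This split by name was made after the values had been seen and was not tested, and the number is a label of the annotation and no measured age.

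For single loci, the values used were the authors' mean normalized counts of each group, with no value per library. The authors' own errors and tests were not used, so loci are described here without either. IP has a mean in each of 3 tables, which were scaled separately, so the IP value of a locus differs between them. A mean of 10 stands for an estimated 20 to 48 reads over the group, depending on the group and table. Of the 47138 Lx loci, 42216 had a mean above 0 in at least 1 group and 5486 in all 4 groups. Loci above 0 numbered 20722 in IP, 20027 in TOTAL, 18870 in INPUT and 16559 in BO. A locus listed at 0 had no read in that group, which in counting error alone allows an expected count of up to 3 reads, or a mean of up to 0.978 in TOTAL, 0.987 in INPUT, 1.51 in BO and, depending on the table, 0.969 to 1.29 in IP. At this depth, the 7037 loci listed above 0 in IP alone, beside 6313 in TOTAL alone, 5471 in INPUT alone and 5210 in BO alone, cannot be called absent elsewhere.

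The Lx signal was spread over many loci. The highest loci that together made up 50% of the summed Lx mean numbered 1337 in IP, 1228 in BO, 1179 in INPUT and 1542 in TOTAL. The highest locus held 1.94% of the sum in IP, 0.985% in BO, 0.682% in INPUT and 0.514% in TOTAL. Locus sums held an estimated 36.1% to 46.8% of the Lx reads of the subfamily table in IP, and 20.0% to 42.0% in BO, so the locus tables see a part of the Lx reads.

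In the table of IP and BO, 337 Lx loci had a mean over both groups of at least 10. Of these, 76 (22.6%) were past 2-fold higher in IP and 141 (41.8%) past 2-fold lower, beside 17.2% higher and 47.7% lower among all repeat loci. The median log2 ratio was -0.61 over Lx loci, -0.90 over all repeat loci and 1.56 over L1Md loci. The ratio of IP to BO of the summed Lx means was -0.37 on the log2 scale. Centred on the median of all repeat loci, 114 Lx loci (33.8%) were higher and 73 (21.7%) lower, beside 30% and 25.7% of all repeat loci.

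In the table of IP and INPUT, 111 of 350 Lx loci (31.7%) were higher in IP and 73 (20.9%) lower, beside 22.1% and 31.2% of all repeat loci. The median log2 ratio was 0.33 over Lx loci and -0.25 over all repeat loci. Among L1Md loci, 81.0% were higher. In the table of IP and TOTAL, 114 of 355 Lx loci (32.1%) were higher in IP and 61 (17.2%) lower, beside 24.1% and 24.3% of all repeat loci. The median log2 ratio was 0.35 over Lx loci and 0.01 over all repeat loci. Against INPUT and TOTAL, the Lx medians lay above those of all repeats for loci and for subfamilies alike. Against BO, Lx loci lay above all repeat loci, at -0.61 and -0.90, whereas Lx subfamilies lay below all subfamilies, at -0.17 and -0.12. This depended on the minimum, since among loci with a mean of at least 50 the medians were -1.29 over 26 Lx loci and -1.10 over all repeat loci. With that minimum, the share of Lx loci past 2-fold higher in IP was below that of all repeat loci, at 22.2% beside 25.2% against INPUT and 27.3% beside 29.9% against TOTAL. The Lx medians still lay above those of all repeat loci, at 0.16 beside -0.01 against INPUT and 0.62 beside 0.24 against TOTAL.

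**Figure D4:**
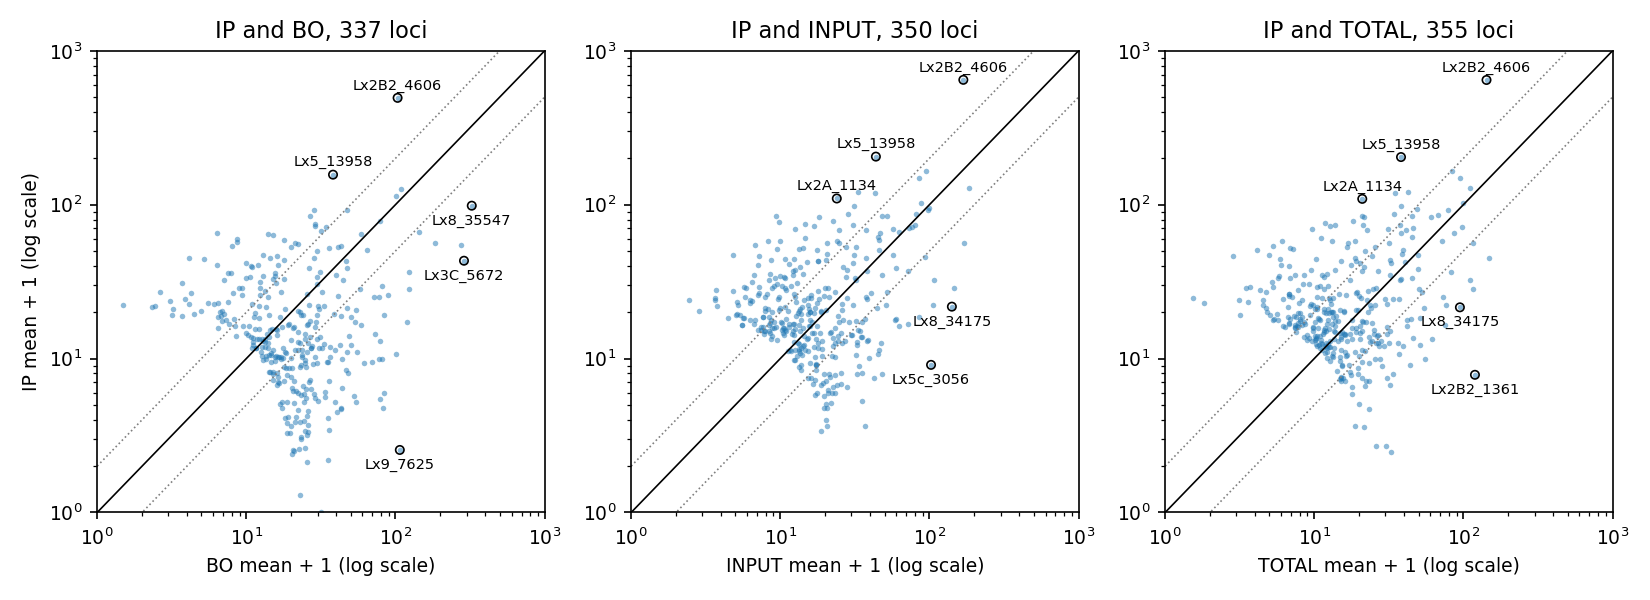
Mean normalized count plus 1 of single Lx loci in IP (vertical, log scale) and in BO, INPUT or TOTAL (horizontal, log scale), for loci with a mean over both groups of at least 10. The solid line marks equal means, dotted lines mark 2-fold, and circled loci are named. Lx2B2_4606 lies highest in IP in each panel, and Lx9_7625 lies far below the lines in the panel of BO.

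The ratios of single loci spanned a wider range than those of subfamilies. Lx2B2_4606 had the highest IP mean, 493 beside 102 in BO, which is 4.82 times higher. It had a mean of 646 beside 168 in INPUT and of 645 beside 142 in TOTAL, 3.85 and 4.55 times higher. It was among the 5 highest Lx loci of IP, INPUT and TOTAL. Lx5_13958 had 156 in IP and 37.1 in BO, while its IP mean of 204 stood beside 42.7 in INPUT and its IP mean of 203 beside 37.1 in TOTAL. Lx2A_1134 had 82.9 in IP and 25.8 in BO, 109 beside 22.9 in INPUT and 108 beside 20.0 in TOTAL. All 3 were between 3.21 and 5.46 times higher in IP in every table. These loci and those named next were picked by their IP ratios or IP means, which favours higher values in IP. Lx5_13958 and Lx2A_1134 reached the minimum mean of 50 only through IP. The 3 tables share the IP libraries, so they are not independent. Among all repeat loci with a mean of at least 50, 20.6%, 25.2% and 29.9% were past 2-fold higher in IP than in BO, INPUT and TOTAL.

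Lx5_10079 and Lx_15670, picked by their ratios of IP to TOTAL, were also higher in IP in every table. Lx5_10079 had an IP mean of 64.0 beside 5.35 in BO, of 83.8 beside 8.34 in INPUT and of 83.8 beside 20.0 in TOTAL, 12, 10.1 and 4.19 times higher. Lx_15670 had 62.5 beside 14.0 in BO, 81.8 beside 17.2 in INPUT and 81.6 beside 20.4 in TOTAL. Lx9_11420 had 90.6 in IP and 27.5 in BO, although the subfamily Lx9 was lower in IP than in BO, and it was 2.82 and 3.49 times higher than in INPUT and TOTAL. Lx_6213 had 120 in IP beside 32.2 in INPUT, and was 1.99 and 2.87 times higher than in BO and TOTAL. Lx2B_4540 had 96.9 in IP beside 30.0 in INPUT, and was 2.64 and 2.6 times higher than in BO and TOTAL. Lx7_7347 and Lx5b_5701, which were among the 5 highest IP loci with 126 and 114 in the table of BO, differed little from BO at 108 and 99.0. Each was 1.76 times higher in IP than in INPUT, and they were 2.01 and 1.57 times higher than in TOTAL.

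In some subfamilies 1 locus held a large share of the signal. Lx2A_1134 held 53.7% of the IP sum of Lx2A, and Lx2B2_4606 held 41.1% of that of Lx2B2. These were the 2 subfamilies with the highest log2 fold changes of IP over INPUT. In summed locus means the log2 ratio of IP to INPUT was 1.22 for Lx2A and 0.87 for Lx2B2. Without that locus it was 0.55 and 0.42, within the range of the other members. Against BO the log2 ratio turned from 0.32 to -0.45 for Lx2A and from 0.31 to -0.29 for Lx2B2. The sums over all repeat loci gave -0.52 for IP over BO and those over all Lx loci -0.37. A negative value in this comparison is therefore not low by itself. Against TOTAL the log2 ratios of Lx2A and Lx2B2 went from 1.01 to 0.23 and from 0.63 to 0.08. In Lx5, without Lx5_13958, which held 10.9% of the IP sum, the log2 ratio of IP to INPUT went from 0.65 to 0.53. For Lx itself, without Lx_6213, it went from 0.67 to 0.64. Leaving out the highest locus was chosen after the data had been seen. Since that locus is picked by its IP mean, its removal favours a lower ratio.

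**Figure D5:**
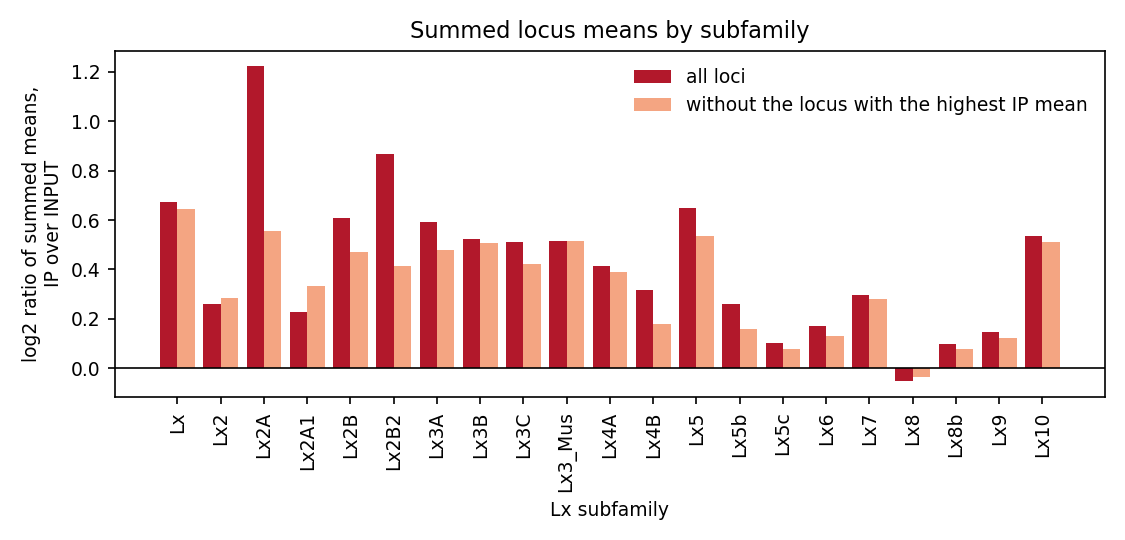
Log2 ratio of summed locus means, IP over INPUT, for each Lx subfamily with all loci (dark) and without the locus with the highest IP mean (light), from the authors' group means. Lx2A and Lx2B2 lead with all loci, at 1.22 and 0.87, and stand at 0.55 and 0.42 without it.

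Of the 5 Lx loci with the highest means on bare beads, 3 came from Lx8. Lx8_35547 had the highest BO mean of all Lx loci, 324 beside 97.4 in IP, and was also the highest in INPUT, with 184. Lx3C_5672 had 287 in BO and 42.2 in IP and alone held 32.2% of the BO sum of Lx3C. Lx8_44350 had 276 in BO and 53.6 in IP, and Lx8_22280 had 182 and 55.6. Lx_22356, the fifth of these, had 142 in BO and 65.1 in IP. Each of the 5 was lower in IP than in BO, by 2.18 to 6.80 times. They were picked by their BO means, which favours lower values in IP. Among all repeat loci with a mean of at least 50, 52.2% were past 2-fold lower in IP than in BO. The log2 ratios of IP to INPUT of the 5 were -1.59 for Lx3C_5672, -0.53 for Lx8_35547, -0.10 for Lx8_22280, -0.09 for Lx8_44350 and 0.09 for Lx_22356.

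The strongest difference was that of Lx9_7625, with 106 in BO and 1.55 in IP. It had 2.64 in INPUT and 1.72 in TOTAL, so its signal was found almost only on bare beads. The tables do not show whether 1 BO library gave it. Lx8_17924 and Lx8_30847 had 100 and 119 in BO and 9.73 and 16.2 in IP.

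Against INPUT, Lx5c_3056 was lowest, with 101 in INPUT and 8.10 in IP. Lx8_34175 and Lx8_34174, which have consecutive serial numbers, behaved alike, with 140 and 145 in INPUT and 20.7 and 27.8 in IP, and with 18.4 and 29.4 in BO. Lx9_1538 and Lx5b_957 were 4.90 and 4.81 times lower in IP than in INPUT. Against TOTAL, Lx2B2_1361 was lowest, with 118 in TOTAL and 6.84 in IP, and its INPUT mean was 31.6 in a separately scaled table. It belongs to the same subfamily as Lx2B2_4606, at the opposite end. Lx7_26780 had the highest TOTAL mean, 147 beside 44.3 in IP, and Lx8_23016 had 110 beside 31.4. Whether these loci lie in the exons or introns of genes was not tested.

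The 2 kinds of table differed on Lx8b. In the subfamily table, Lx8b held 8.59% ± 0.19 (SD, n = 3) of Lx reads in BO, above 6.53% ± 0.04 in INPUT, 6.38% ± 0.04 in TOTAL and 6.55% ± 0.22 in IP. In sums of locus means, it held 6.59% in BO, 6.54% in INPUT, 6.28% in TOTAL and 5.66% in IP. The excess of Lx8b in BO over INPUT, the greatest among the members in the subfamily table, was therefore not seen in its share of the locus sums. Its log2 ratio of summed locus means was -0.59 for IP over BO, beside -0.52 for the sums over all repeat loci. The -0.68 of the subfamily fit stood beside a median of -0.12 over all subfamilies. A ratio of sums and a median are unlike measures, so these 2 backgrounds are not directly comparable. Of the 19 Lx8b loci past a mean of 10, 0 were past 2-fold higher in IP and 12 (beside 47.7% of all repeat loci) past 2-fold lower. The 2 tables were counted and scaled apart, and whether that has a part in the difference was not tested.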

How the data were processed

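RNA-seq of 4 groups (TOTAL, INPUT, BO and IP) with 3 libraries each was analysed from the processed files, with groups taken from the sample labels. Libraries were depleted of rRNA, stranded and read as 75 nt single ends. Their RNA amounted to 200 ng in TOTAL and INPUT and to 20 to 40 ng in IP. For BO it was whatever RNA a volume equal to that of IP yielded, an amount not stated. Normalized counts therefore compare the make-up of the libraries and not the amount of RNA held. For repeat subfamilies, the authors aligned reads with STAR 2.6.0c to the mm10 build (up to 100 positions per read), reassigned multi-mapping reads with Telescope, summed them per subfamily and normalized them with EBSeq. The deposited signal is this upper-quartile normalized count. Multi-mapping reads of related subfamilies can be assigned to the wrong one. How multi-mapping reads entered the locus values is not known here. All values were whole multiples of 1 step per library (100%, tolerance 0.1), so that reads were recovered. For single loci and genes, the deposited signal is the mean normalized count per group from DESeq2 1.24.0, and the counter is not given in the sources used here. The same tables hold the authors' log2 fold changes, standard errors, test statistics and p-values, which were not used.

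Log2(normalized count + 1) was fitted with limma 3.58.1 (R 4.3.3, lmFit and eBayes with a trend) over the 12 libraries for 1180 subfamilies with a mean of at least 10, with Benjamini-Hochberg adjustment. Intervals are 95% intervals of that fit. Deviations of same-numbered libraries from their group means correlated at 0.629, 0.339 and 0.321 between TOTAL and INPUT, so the numbers pair these 2 groups, by the data and not the labels. Within-library ratios were compared with exact permutation tests (SciPy 1.17.1, Python 3.11.15). Locus ratios are log2 of the means plus 1, and folds of single loci are plain ratios of means. Alternatives were a pseudocount of 10, no filter, other scalings, the compared groups alone, a replicate block, edgeR 4.0.16 on recovered reads, and each library left out. The fit was tested on simulated data for IP vs BO over 1180 subfamilies. It gave an adjusted p under 0.05 in the simulated direction, at any fold, for 99% of changes of 1 on the log2 scale. For changes of 2 this was 100%. The spread of the simulated counts was set by hand and not taken from the data. Smaller changes, such as all those of Lx subfamilies in the main fit, were not simulated, so their recovery is not known. Named in full were the 3 subfamilies with the most reads, the highest and lowest in each comparison, the 5 highest loci per group, and the 5 highest and 5 lowest ratios among loci with a mean of at least 50. Members and lists were chosen with earlier results of these data known.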

Additional observations from a re-analysis of the deposited data

How the results depend on the processing

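Of 105 pairs of a subfamily and a comparison, a pseudocount of 10 changed 0 calls, no filter lost 1, fitting the compared groups alone lost 7, and median ratio scaling and edgeR each lost 6 and gained 7. Leaving out 1 library in turn reversed 0 calls, lost 38 and gained 4 over all such fits, while of the log2 fold changes that did not pass and lay near 0, those of 2 subfamilies turned sign for IP vs BO (Lx2B and Lx3_Mus), 4 for IP vs INPUT, 6 for IP vs TOTAL and 4 for INPUT vs TOTAL. It gave 0 to 1 subfamilies higher in IP than in BO (1 without BO replicate 1, Lx2A), 6 to 9 higher in IP than in INPUT and 0 to 3 higher in IP than in TOTAL. The share of all subfamilies was not counted in the fits without a library. For IP vs BO, median ratio scaling and edgeR each gave 3 higher and 4 lower. For IP vs TOTAL, the compared groups alone gave 1 higher, beside 6.61% of all subfamilies. Scaling to library totals had the widest effect, moving the median of all subfamilies to 0.36, 0.47, 1.49, 1.03 and 0.08 for IP vs BO, IP vs INPUT, IP vs TOTAL, INPUT vs TOTAL and BO vs INPUT. It gave 0 lower for IP vs BO, 4 higher (3 past 2-fold) for IP vs INPUT, 21 higher (21 past 2-fold) for IP vs TOTAL, 21 higher (3 past 2-fold) for INPUT vs TOTAL and 0 higher for BO vs INPUT. With it 17 of 21 log2 fold changes of IP over BO turned positive, with Lx8b alone still negative. Among those that had passed, it reversed to 0.23 for Lx5c, 0.16 for Lx7, 0.22 for Lx5b, 0.11 for Lx6, 0.28 for Lx2, 0.12 for Lx9, 0.085 for Lx8 and 0.20 for Lx10. Among those that passed under either scaling, that of IP over TOTAL reversed to 1.50 for Lx5c, 1.51 for Lx2, 1.54 for Lx9 and 1.54 for Lx3_Mus. That of INPUT over TOTAL reversed to 0.91 for Lx5, 0.91 for Lx5c, 0.96 for Lx7, 0.92 for Lx5b, 0.91 for Lx4A, 0.81 for Lx2, 0.84 for Lx and 0.90 for Lx2A1. It reversed to 0.82 for Lx2A, 0.74 for Lx3A, 0.80 for Lx2B, 0.71 for Lx3B, 0.94 for Lx3C, 0.74 for Lx2B2, 0.99 for Lx9, 0.97 for Lx8b, 0.86 for Lx3_Mus and 0.88 for Lx10. These reversals follow the shift of the whole scale, and their further cause was not tested. With the mean over subfamilies in place of summed counts, the log2 difference of Lx to L1Md between IP and BO was -1.48. With a mean of at least 50, fewer loci remained, 6 higher (23.1%, beside 20.6% of all repeat loci) and 14 lower (53.8%, beside 52.2%) for IP vs BO, 8 (22.2%, beside 25.2%) and 8 (22.2%, beside 26.4%) for IP vs INPUT, and 9 (27.3%, beside 29.9%) and 7 (21.2%, beside 23.5%) for IP vs TOTAL. Centred on all repeat loci, 73 loci were lower for IP vs BO. Without the 10 highest loci, the log2 ratio of Lx sums for IP vs TOTAL was 0.19. The alternative without loci that overlap annotated exons was not run.

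The replicate block gave 1 subfamily higher (Lx2A, limma adjusted p = 0.0464) and 10 lower for IP vs BO, beside 12.5% and 25.7% of all subfamilies. For INPUT vs TOTAL it gave 1 lower (Lx2B2), beside 2.71%, and it changed 4 calls in all. Same-numbered libraries correlated between -0.142 and 0.629, with r over 0.1 in 8 of 18 pairs. Of 12 libraries, 8 correlated best with one of their own number. The numbers were taken as pairs only between TOTAL and INPUT, where all 3 correlations were over 0.1. This cut cannot show that the other groups were unpaired, since IP and BO were both made from INPUT material. Between INPUT and BO the correlations were 0.295, 0.0615 and 0.558. Depth limits single loci most, since a mean of 10 rests on an estimated 20 to 48 reads.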
